A study of Mus musculus with 2 samples.

Results

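The genes described here encode the subunits of heterotrimeric G proteins and the proteins that regulate them, as measured by RNA sequencing of tuft cells sorted from mouse small intestine. They were taken by symbol alone: every Rgs symbol with a number, which takes in the anchor proteins Rgs7bp and Rgs9bp, the Gα genes of the s, olf, i, o, z, q and G12 classes, Gnb1 to Gnb5, the numbered Gng genes and the Gpsm genes, leaving out the taste-type subunits Gnat3, Gnb3 and Gng13. This gave 47 genes of the 17134 in the table. Gna15, Gng2, Rgs7, Rgs10 and Rgs21 were not analysed here. The Spib_KO library came from mice labelled Spibfl/flVillin-cre, in which Cre under the Villin promoter acts on floxed Spib in intestinal epithelium, so cells of other lineages are not targeted. The WT library came from mice labelled Spib+Villin-cre, which carry the same Cre transgene. All mice were naïve, and cells were sorted as EpCAM+ SiglecF+. The age, strain and number of mice behind each library, and the part of Spib that is deleted, were not given in the labels.

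A heterotrimeric G protein consists of an α subunit that binds GTP and a βγ dimer, and both parts signal once a receptor has loaded the α subunit with GTP. RGS proteins speed up GTP hydrolysis by α subunits and so end the signal, while GPSM proteins bind GDP-loaded Gαi through GoLoco motifs. In tuft cells, which sense the gut lumen with parts of the taste pathway, G protein signals are known to reach phospholipase C and the channel Trpm5.

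There was 1 library per genotype, so no difference between genotypes could be tested and no p-value is given. Reads on genes totalled 17228684 in Spib_KO and 17925448 in WT, and levels are given as reads, as TMM-normalised CPM (reads scaled to library size) or, between genes, as deposited TPM (scaled to transcript length as well). Log2 ratios are Spib_KO over WT, with a 95% interval that covers counting error only. A gene was measured if it had at least 5 CPM and 30 reads in a library, and it was called higher or lower if its whole interval lay past a 2-fold difference. Spib, the deleted gene, had 48 reads in Spib_KO and 6266 in WT. Of 12 tuft marker genes, 12 were measured and 0 were called, with a median log2 ratio of 0.10. These are bulk samples, in which fewer cells of a type and less RNA per cell cannot be told apart.

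Of the 47 genes, 26 were measured, and 3 were called higher and 3 lower. The 3 called higher were Gnai1, Rgs9 and Rgs16, against a background of 2.33% of all 10707 measured genes called higher. The 3 called lower were Rgs14, Rgs19 and Rgs1, against a background of 2.18%. Both directions together made up 23.1% of the measured members, against 4.51% of all measured genes. 5 of these 6 genes encode RGS proteins and the other is an inhibitory α subunit, while no β or γ gene was called. The intervals of the other measured members all reached inside 2-fold, and 18 of the 26 ratios (69.2%) were within 1.5-fold, against 79.5% of all measured genes. With a minimum of 20 CPM, 0 members were higher and 2 lower, Rgs14 and Rgs19, where 1.31% of all genes were higher, 1.38% lower and 2.69% either. With a 4-fold bound 1 was higher, Gnai1, and 3 were lower, where 0.607% of all genes were higher, 0.822% lower and 1.43% either.

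**Figure D1:**
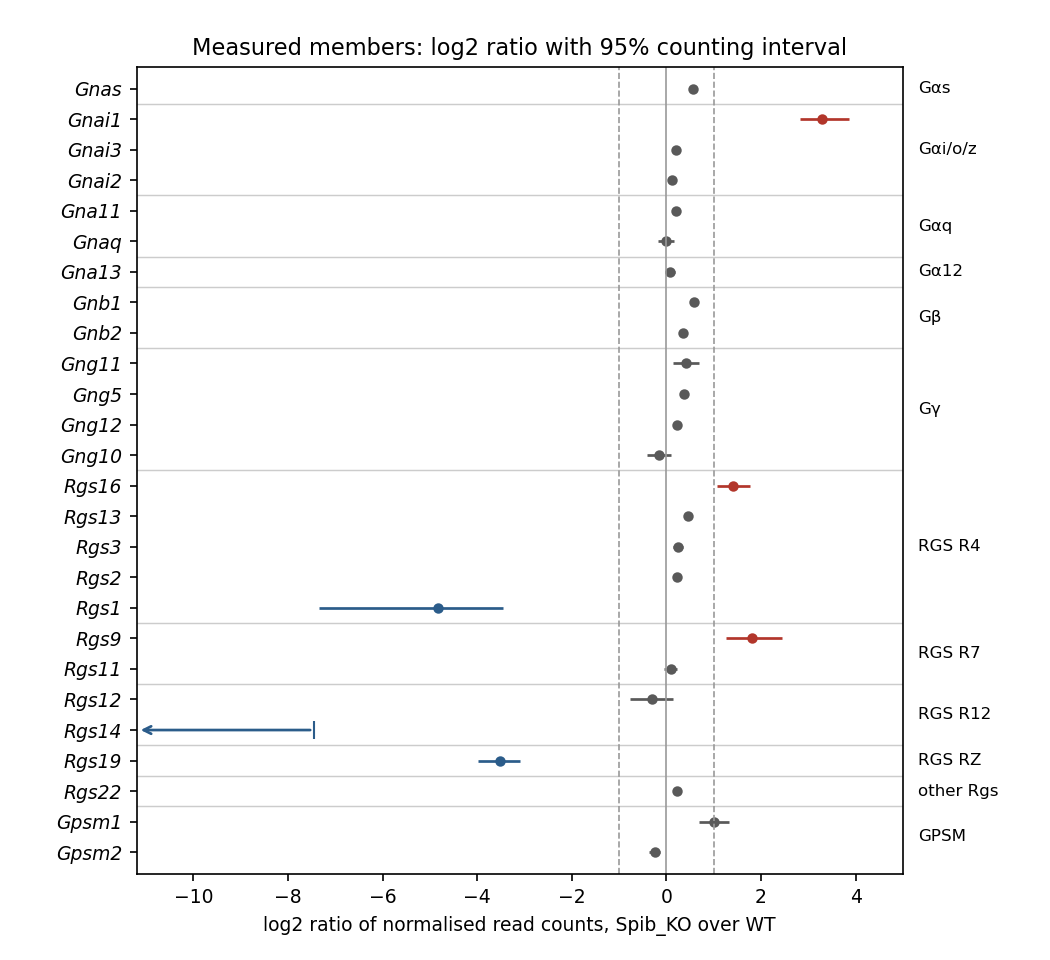
Log2 ratio of normalised read counts, Spib_KO over WT, for the 26 measured members by class, with 95% counting intervals as bars and dashed lines at a 2-fold difference in either direction. Rgs14, with 0 reads in Spib_KO, is drawn as an arrow from its interval bound of -7.44, and the 6 called genes, in red if higher and in blue if lower, are the only ones whose intervals lie wholly outside the dashed lines.

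Promoter sequence is shown for Rgs19, Rgs16 and Gnai1, the called genes with the most reads among those in the RefSeq promoter table (GRCm38.p6), which held 35 of the 47 genes. Rgs14 and Rgs1 were not among these. Each window is the 250 bases before a start site on the gene's strand, and capitals mark the letters GAGGAA or their reverse complement TTCCTC. Spib encodes an ETS factor, and sites known for this factor hold a GAGGAA core, but a match is a description and not a binding site. The first window lies at chr2:181693978-181694227 on the minus strand, before an upstream Rgs19 start, and holds the letters 21 bases before it. The second, at chr2:181691818-181692067 on the minus strand, precedes a downstream Rgs19 start and holds them 110 and 18 bases before it. Another Rgs19 window in the table, at chr2:181693811-181694060, is not printed because it overlaps the first, and it holds the first window's match at 188 bases before its own start. The third lies at chr1:153740103-153740352 on the plus strand before Rgs16, with the reverse complement 220 bases before the start. The fourth lies at chr5:18360414-18360663 on the minus strand before Gnai1 and has no match.
Rgs19 upstream start: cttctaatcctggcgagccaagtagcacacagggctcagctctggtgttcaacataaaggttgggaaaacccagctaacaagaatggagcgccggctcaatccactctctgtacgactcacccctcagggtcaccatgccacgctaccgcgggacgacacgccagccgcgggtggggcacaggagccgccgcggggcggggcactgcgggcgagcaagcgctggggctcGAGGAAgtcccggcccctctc
Rgs19 downstream start: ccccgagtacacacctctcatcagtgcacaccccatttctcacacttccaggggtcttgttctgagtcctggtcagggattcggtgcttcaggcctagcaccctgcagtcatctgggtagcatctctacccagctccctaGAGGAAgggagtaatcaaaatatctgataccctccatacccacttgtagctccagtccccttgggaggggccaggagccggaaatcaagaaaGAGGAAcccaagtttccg
Rgs16: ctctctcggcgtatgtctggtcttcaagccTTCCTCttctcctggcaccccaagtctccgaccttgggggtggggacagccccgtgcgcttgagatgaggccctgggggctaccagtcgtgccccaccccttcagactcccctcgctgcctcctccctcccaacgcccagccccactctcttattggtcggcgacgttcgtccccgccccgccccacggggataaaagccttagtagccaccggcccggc
Gnai1: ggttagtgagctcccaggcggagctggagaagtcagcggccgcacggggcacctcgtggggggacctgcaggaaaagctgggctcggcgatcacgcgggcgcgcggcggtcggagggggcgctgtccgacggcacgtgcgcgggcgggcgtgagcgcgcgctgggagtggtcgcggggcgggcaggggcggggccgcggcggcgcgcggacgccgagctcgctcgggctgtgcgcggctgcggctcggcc

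The letters GAGGAA were common in such windows. They were found, on either strand, before 11 of the 35 members in the table, or 31.4%, and before 25.9% of all 27025 genes in it. The longer AGAGGAAG, which contains GAGGAA, was found before 3 of the 35 members, namely Rgs12, Rgs16 and Rgs19, and before 4.27% of all genes. Rgs19 was lower and Rgs16 higher in Spib_KO, and Rgs12 was not called. With 3 genes, a link between the longer match and a direction was not tested. The windows of Rgs9 and of the abundant Rgs13, Rgs2 and Gna11 held neither.

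Among α subunits, the classes that stimulate cyclic AMP, inhibit it and activate phospholipase C were all present at high levels. Gna11, a Gαq-class subunit that activates phospholipase Cβ, was the most abundant, at 336 TPM in Spib_KO and 294 TPM in WT. Gnas, the Gαs subunit that stimulates adenylyl cyclase, had 308 TPM in Spib_KO and 206 TPM in WT. Gnai2, which inhibits adenylyl cyclase, had 200 TPM in Spib_KO and 189 TPM in WT. Gna11 made up 34.5% of the α subunit TPM in Spib_KO and 36.6% in WT, and Gnas 31.5% in Spib_KO and 25.6% in WT. Gnai3, another inhibitory subunit, had 59.9 TPM in Spib_KO and 52.4 TPM in WT. Gna13, of the G12 class, had 53.5 TPM in Spib_KO and 50.9 TPM in WT. Gnaq, the close relative of Gna11, was far lower than it in both libraries, at 5.74 TPM in Spib_KO and 5.84 TPM in WT.

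**Figure D2:**
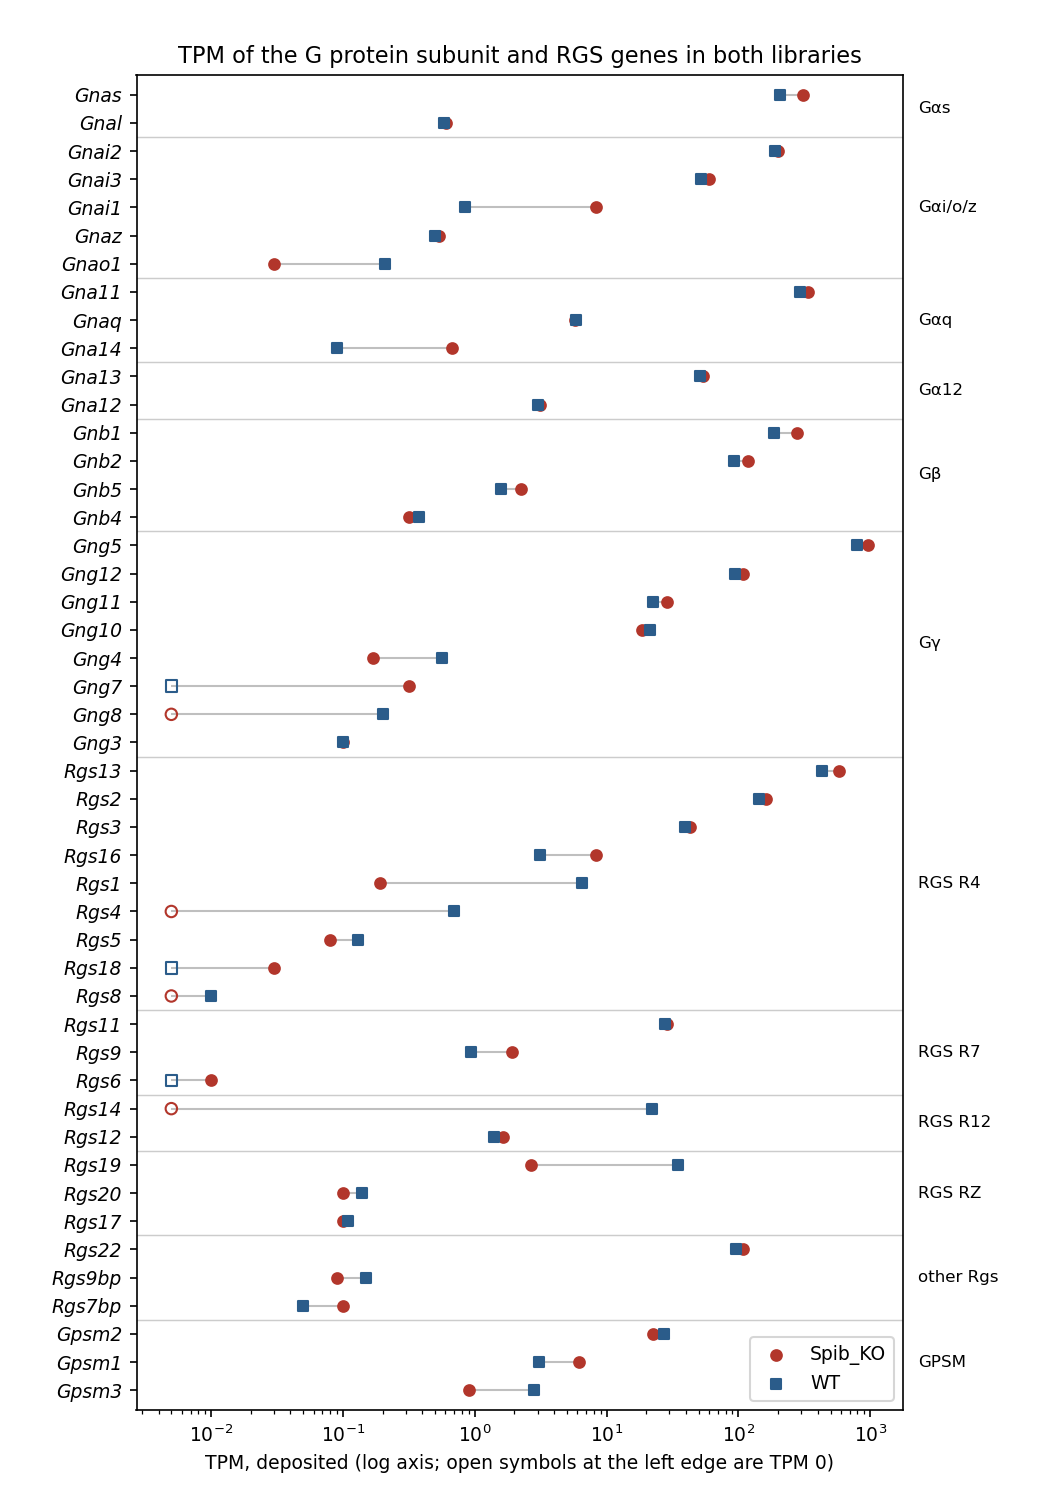
Deposited TPM (log axis) of all 47 genes by class, with Spib_KO as red circles and WT as blue squares. Open symbols at the left edge stand for a TPM of 0, and the longest lines among genes above 1 TPM join the values of Rgs14, Rgs1, Rgs19 and Gnai1.

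Gnai1 was the only α subunit called. It had 342 reads in Spib_KO, or 19.9 CPM (exact 95% counting interval 17.9 to 22.2), and 36 reads in WT, or 2.0 CPM (1.40 to 2.77). The log2 ratio was 3.30 (2.82 to 3.85), or 9.84-fold higher in Spib_KO. The gene lies on chromosome 5 from 18265135 to 18360413 (GRCm38.p6) and overlaps no gene other than a pseudogene, Gm3527. Even so it stayed a minor inhibitory subunit, at 8.36 TPM in Spib_KO and 0.85 TPM in WT, below Gnai2 and Gnai3 in both. Its share of all α subunit TPM was 0.857% in Spib_KO and 0.106% in WT. Gnai2 and Gnai3 themselves had log2 ratios of 0.11 (0.06 to 0.17) and 0.21 (0.13 to 0.29).

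The other α subunits were not called. Gnas had 5904 reads in Spib_KO, or 344 CPM, and 4194 reads in WT, or 233 CPM. Its log2 ratio of 0.56 (0.50 to 0.62) lay clear of 0 but within 2-fold, and the locus also holds the antisense gene Gnasas1, whose reads an unstranded library does not separate. Gna11 had 14646 reads in Spib_KO and 13289 in WT, the most of any member, with a log2 ratio of 0.21 (0.17 to 0.24). Gna13 had a log2 ratio of 0.08 (-0.02 to 0.18) and Gnaq one of -0.01 (-0.19 to 0.16), and both of these intervals include 0. Gna12, Gnal, Gnaz, Gna14 and Gnao1 were below the measurement threshold.

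The β subunits were dominated by Gnb1 and Gnb2, which are broadly expressed. Gnb1 had 10955 reads in Spib_KO, or 638 CPM, and 7642 reads in WT, or 425 CPM. Its log2 ratio of 0.59 (0.55 to 0.63) was the highest among the 11 members with a mean of at least 100 CPM. Gnb2 had 138 CPM in Spib_KO and 108 CPM in WT, a log2 ratio of 0.36 (0.27 to 0.45). Gnb1 made up 69.7% of the β subunit TPM in Spib_KO and 66.2% in WT. Gnb5, which pairs with R7-family RGS proteins in place of a γ subunit, had only 62 reads in Spib_KO and 45 in WT. Rgs11, of that family, had 881 reads in Spib_KO and 865 in WT. Gnb5 overlaps Myo5c, which had 493 reads in Spib_KO and 669 in WT.

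Gng5 had the highest TPM of all members in both libraries. It had 964 TPM in Spib_KO and 799 TPM in WT, or 86.1% of the γ subunit TPM in Spib_KO and 85.2% in WT. In counts its log2 ratio was 0.36 (0.30 to 0.43), and RefSeq lists a transcribed pseudogene, Gng5-ps, whose reads the counting could have joined with it or split from it. Gng12 followed with 108 TPM in Spib_KO and 93.7 TPM in WT and a log2 ratio of 0.22 (0.17 to 0.28). Gng11 had 250 reads in Spib_KO and 198 in WT, a log2 ratio of 0.40 (0.13 to 0.68). Gng10 had 234 reads in Spib_KO and 273 in WT, a log2 ratio of -0.15 (-0.41 to 0.10).

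The taste-type subunits left out of the list give the context of these pools. Gng13, the γ subunit of taste cells, had 125 CPM in Spib_KO and 59.6 CPM in WT, and its log2 ratio of 1.07 (0.96 to 1.18) just missed the call. With it included, Gng13 made up 40.5% of γ subunit TPM in Spib_KO and 29.2% in WT. The γ shares given here are over the numbered Gng genes and leave out Gngt1 and Gngt2. Gngt2 had a mean of 32.3 CPM and a log2 ratio of 0.99, and was not called. Gnat3, gustducin, had 353 reads in Spib_KO and 614 in WT, and Gnb3 had 38 reads in Spib_KO and 3 in WT.

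**Figure D3:**
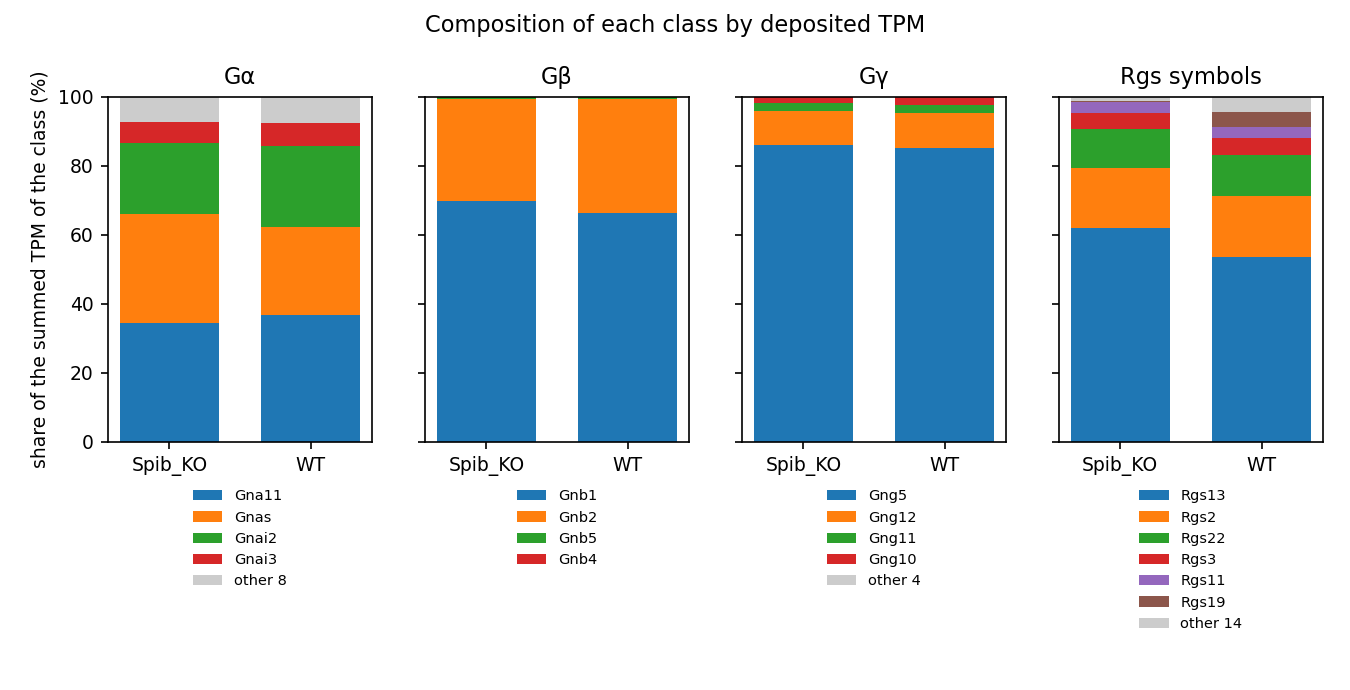
Share (%) of the summed deposited TPM of each class taken by its members, with Spib_KO as the left and WT as the right bar of each panel. Gna11, Gnas and Gnai2, Gnb1, Gng5 and Rgs13 lead their classes in both libraries, and the brown band of Rgs19, 4.30% in WT, is 0.285% in Spib_KO.

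The Rgs symbols held 5 of the 6 calls, 2 higher and 3 lower among 11 measured of 20. Rgs13, an R4-family protein that acts on Gαi and Gαq and a known tuft cell gene, was the most abundant of them. It had 11838 reads in Spib_KO, or 690 CPM, and 9049 reads in WT, or 503 CPM, a log2 ratio of 0.46 (0.42 to 0.50). It made up 61.9% of the TPM of the Rgs symbols in Spib_KO and 53.6% in WT. Rgs2, which prefers Gαq, had 365 CPM in Spib_KO and 314 CPM in WT, a log2 ratio of 0.21 (0.16 to 0.27). Rgs22, best known from testis, had 333 CPM in Spib_KO and 283 CPM in WT, a log2 ratio of 0.23 (0.18 to 0.29). Rgs3 had 92.5 CPM in Spib_KO and 78.3 CPM in WT, a log2 ratio of 0.24 (0.14 to 0.34). Rgs11, of the R7 family that pairs with Gβ5, had a log2 ratio of 0.10 (-0.04 to 0.23). Rgs13, Rgs2, Rgs22, Rgs3 and Rgs11, the most abundant in Spib_KO, were all within 1.5-fold. In WT Rgs19, at 34.8 TPM, stood between Rgs3 and Rgs11.

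Rgs14 was the member with the furthest bound. This R12-family protein joins an RGS domain, Ras-binding domains and a GoLoco motif, and it is best known from hippocampal neurons and lymphocytes. It had 0 reads in Spib_KO, which allows up to 0.175 CPM by a floor of 3 counts and up to 0.215 CPM by the wider 2-sided Poisson interval, and 674 reads in WT, or 37.5 CPM (34.7 to 40.4). Against the floor of 3 counts in the Spib_KO library, it was at least 214-fold lower in Spib_KO. The 2-sided interval, which also covers the counting error of the WT reads, ended at a log2 ratio of -7.44, a smaller difference than that floor gives. In WT it had 22.1 TPM, close to Gng11 at 22.6 TPM. The gene lies on chromosome 13 from 55369732 to 55384687 and overlaps no other gene of the RefSeq table. Lman2, 6949 bases away, had 309 CPM in Spib_KO and 299 CPM in WT, a log2 ratio of 0.05. Rgs12, the other R12-family member, had 72 reads in Spib_KO and 94 in WT, a log2 ratio of -0.31 (-0.78 to 0.14), and was not called.

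Rgs19 encodes an RZ-family protein, also named GAIP, that acts on the Gαi class. It had 49 reads in Spib_KO, or 2.86 CPM (2.11 to 3.77), and 591 reads in WT, or 32.8 CPM (30.2 to 35.6). The log2 ratio was -3.51 (-3.97 to -3.10), or 11.4-fold lower in Spib_KO. On the TPM scale it had 2.69 in Spib_KO and 34.8 in WT, a share of 0.285% of the TPM of the Rgs symbols in Spib_KO and 4.30% in WT. It lies on chromosome 2 from 181688419 to 181694537, 352 bases from Tcea2, which had 98 reads in Spib_KO and 139 in WT. The RZ relatives Rgs17 and Rgs20 had at most 12 reads in either library.

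Rgs1, an R4-family gene known from activated lymphocytes, had 3 reads in Spib_KO and 104 in WT. These are 0.175 CPM (0.0361 to 0.511) in Spib_KO and 5.78 CPM (4.72 to 7.0) in WT. The log2 ratio was -4.84 (-7.35 to -3.46), and Rgs1 was only just above the measurement threshold in WT. Rgs1, Rgs2, Rgs13 and Rgs18 lie within 776 kb of chromosome 1, and of these 4 neighbours Rgs1 alone was called. Rgs18, known from platelets, had 1 read in Spib_KO and 0 in WT.

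Because Rgs1, Rgs14 and Rgs19 are also expressed by leukocytes, markers of such cells are given beside them. The 10 T cell and intraepithelial lymphocyte markers in the table summed to 5.83 CPM in Spib_KO and 56.0 CPM in WT. Of 4 that were measured, 4 were called lower (Gzma, Ccl5, Itgae and Cd7), and Cd3d was at 0 reads in Spib_KO and 20 in WT. The highest single marker of that list, Gzma, reached 1.28 CPM in Spib_KO and 17.6 CPM in WT. The 8 myeloid markers summed to 21.4 CPM in Spib_KO and 31.3 CPM in WT, with 1 of 3 measured called lower (Lyz2). Csf1r, C1qa and Tyrobp were at 0 reads in Spib_KO and at 5, 13 and 18 in WT. Adgre1, of the same list, had 230 reads (13.4 CPM) in Spib_KO and 135 reads in WT, a log2 ratio of 0.83 (0.52 to 1.15). The 4 B cell markers summed to 2.27 CPM in Spib_KO and 5.61 CPM in WT. The 3 mast cell markers summed to 0.117 CPM in Spib_KO and 3.83 CPM in WT, and the 3 eosinophil markers to 0.117 CPM in Spib_KO and 0.222 CPM in WT. Markers of other epithelial lineages also differed in part. The 6 Paneth cell markers summed to 969 CPM in Spib_KO and 2460 CPM in WT, with 5 called lower. The 6 goblet cell markers summed to 1261 CPM in Spib_KO and 2051 CPM in WT, with 3 called lower. Ang4, of the Paneth list, and Clca1, of the goblet list, went the other way and were not called. Their log2 ratios were 0.75 (0.63 to 0.87) and 0.68 (0.63 to 0.74). The 7 enterocyte markers summed to 15068 CPM in Spib_KO and 12719 CPM in WT, with 0 called. Most of that sum was Fabp1, at 10611 CPM in Spib_KO and 6968 CPM in WT. The median log2 ratio of the enterocyte list was -0.35. The part of any of these cells in the lower Rgs1, Rgs14 and Rgs19 was not tested.

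The higher RGS genes were Rgs9 and Rgs16. Rgs16, an R4-family protein that acts on Gαi and Gαq, had 242 reads in Spib_KO (14.1 CPM) and 95 in WT (5.28 CPM). Its log2 ratio was 1.41 (1.07 to 1.78), or 2.66-fold higher. The lower bound was close to the threshold, and with libraries scaled on the 12 tuft markers the ratio was 1.31 and the gene was no longer called. Rgs16 neighbours Rgs8 on chromosome 1, at a distance of 42.7 kb, and Rgs8 had 0 reads in Spib_KO and 1 in WT.

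Rgs9, an R7-family gene known from photoreceptors and striatum, had 112 reads in Spib_KO, or 6.53 CPM (5.37 to 7.85), and 33 reads in WT, or 1.83 CPM (1.26 to 2.58). The log2 ratio from reads was 1.82 (1.26 to 2.44), or 3.52-fold higher. The deposited TPM gave a smaller difference, 1.92 in Spib_KO and 0.93 in WT, which is 2.06-fold. The transcript length implied by its reads and FPKM was 4249 bases in Spib_KO and 2488 bases in WT. Rgs12 showed the opposite shift, with an implied length of 3215 bases in Spib_KO and 4682 bases in WT, so that its TPM was 1.63 in Spib_KO and 1.41 in WT although its reads were fewer in Spib_KO. Among genes with an FPKM of at least 1 in both libraries such a difference was uncommon. Of these, 3.29% differed in implied length by more than 0.2 on the log2 scale, and of 22 such members 1 did, Rgs12. Rgs9, at 0.74 FPKM in WT, was not among them, and its own difference was 0.76. Per-transcript reads were not analysed here.

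None of the GPSM genes was called. Gpsm2, also named LGN, which orients the mitotic spindle, had 1025 reads in Spib_KO and 1274 in WT, a log2 ratio of -0.25 (-0.37 to -0.13). Gpsm1, also named AGS3, had 252 reads in Spib_KO and 132 in WT. Its log2 ratio of 1.0 (0.69 to 1.32) had an interval that reached inside 2-fold. Gpsm1 overlaps Dnlz, which had a log2 ratio of -0.08, and Gpsm2 overlaps Clcc1, which had one of 0.09. Gpsm3, also named AGS4 and known from leukocytes, had 14 reads in Spib_KO and 45 in WT and was not measured.

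The measured members, with the called genes included, lay above 0 more often than genes at large. The median log2 ratio of the 26 was 0.22, with quartiles of 0.01 and 0.44, and that of all measured genes was 0.01, with quartiles of -0.26 and 0.28. Of the 26, 19 (73.1%) were above 0, against 51.2% of all measured genes. For 17 members the interval lay wholly above 0, for 4 wholly below and for 5 it included 0. The matching shares of all measured genes were not computed. Counting intervals are narrow at high read counts, so these numbers are no result about the members. All 11 members with a mean of at least 100 CPM were above 0, with log2 ratios of 0.11 to 0.59, whereas 50.3% of the 2076 genes at that level were. That minimum was chosen after the values were seen. Summed over a class, β subunits had 782 CPM in Spib_KO and 537 CPM in WT, a log2 ratio of 0.54, and the Gαs class had one of 0.56. The Gαq class had a log2 ratio of 0.20 for its sum, the γ subunits 0.27 and the GPSM genes -0.10 (-0.21 to 0.01). The R12 and RZ families, which hold Rgs14 and Rgs19, had sums far below 0, at -3.35 and -3.22. All Rgs symbols together had one of 0.24. Scaling on the tuft markers lowered the log2 ratios of all genes by 0.10, and 17 of the 26 members were then above 0, with Rgs11 and Gna13 below it.

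**Figure D4:**
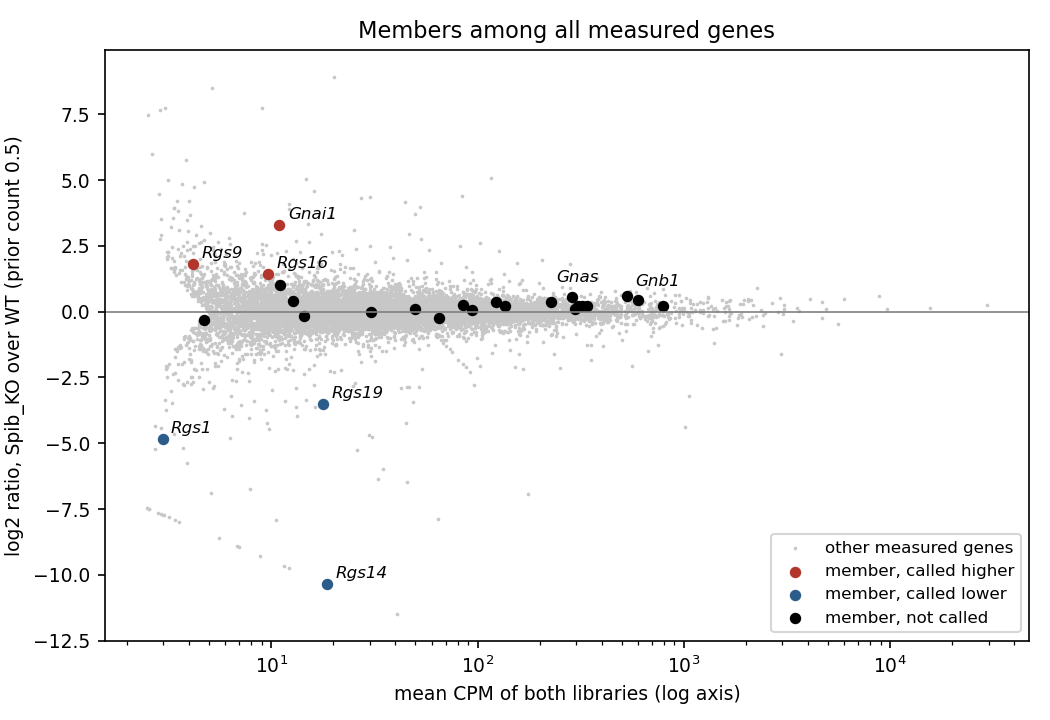
Log2 ratio, Spib_KO over WT, against the mean CPM of both libraries (log axis) for all 10707 measured genes in grey and the 26 measured members as larger points, red if called higher, blue if called lower and black if not called. The position of Rgs14 depends on the prior count of 0.5, and the abundant members at the right lie in a narrow band above 0 that includes Gnas at 0.56 and Gnb1 at 0.59.

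The 21 members that were not measured had at most 72 reads in a library. Gna12, of the same class as Gna13, was the highest, with 72 reads in each of the Spib_KO and WT libraries. The neuronal or sensory subunits Gnao1, Gnaz, Gnal, Gng3 and Gng8 had at most 44 reads in either library. Gnal also overlaps Chmp1b and Mppe1, and Gng3 overlaps Bscl2, all of which had more reads. Of these 21, 3 had an interval wholly past a 2-fold difference. Without the measurement threshold these made 5 members higher and 4 lower, where 3.48% of all genes were higher, 4.18% lower and 7.66% either. They were chosen after their values were seen. Gna14, of the Gαq class, had 29 reads in Spib_KO and 4 in WT, a log2 ratio of 2.78 (1.42 to 4.90). Gng7, known from striatum, had 14 reads in Spib_KO and 0 in WT, at least 4.89-fold higher in Spib_KO against a floor of 3 counts in the WT library, with a 2-sided interval that starts at a log2 ratio of 1.80. Rgs4, known from neurons and heart, had 0 reads in Spib_KO and 27 in WT, at least 8.58-fold lower in Spib_KO against the same floor in the Spib_KO library, with a 2-sided interval that ends at a log2 ratio of -2.70. The enteroendocrine markers, whose cells also express neuronal genes, summed to 41.7 CPM in Spib_KO and 138 CPM in WT. Of these 10 markers 7 were measured, with 5 called lower and 1, Gip, called higher. Gcg, Tph1 and Pyy were at 0 reads in Spib_KO and at 316, 123 and 1 in WT. The part of such cells in these values was not tested.

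The other genes of the G protein cycle, which act with these members, gave 1 call. Among 43 such genes present in the files 27 were measured, 0 were higher and 1 was lower, and the median log2 ratio was 0.06. With 2.33% of all measured genes higher and 2.18% lower, these counts are near the background and are no result about the list. The called gene was Plcb2, the phospholipase of the taste pathway and a target of βγ dimers, with 321 CPM in Spib_KO and 682 CPM in WT. Its log2 ratio was -1.09 (-1.13 to -1.04), with a bound close to the threshold. The deposited TPM of Plcb2 gave a larger difference, 87.5 in Spib_KO and 257 in WT. Nucb1, a Gαi-binding calcium protein of the Golgi, was the most abundant gene of the list in Spib_KO, with 168 TPM in Spib_KO and 146 TPM in WT. The receptor kinases and arrestins, which end signalling at the receptor, had 0 calls among 6 measured and a median of -0.28. Ric8a and Ric8b and the other chaperones and exchange factors had 0 calls among 7 measured and a median of 0.28. Effectors had the 1 lower call among 8 measured, with a median of -0.16, and other proteins with an RGS-type or GoLoco domain had 0 calls among 6 and a median of 0.09.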

How the data were processed

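Tuft cell RNA was taken up in TRIzol, amplified by template switching (Smart-seq2) and tagmented into libraries, per the labels' protocols. Reads were processed with HISAT and Bowtie2 2.2.3 on build mm10, per the submitters' processing notes, while no counting program is named in these notes. Each gene has a count, an FPKM and a TPM made by the authors, per the file headers. The deposited counts are expected counts, 18.6% (Spib_KO) and 19.0% (WT) of them not whole, and were rounded. FPKM and TPM were used as deposited.

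Library totals were scaled by TMM (edgeR 4.0.16, R 4.3.3). Log2 ratios used a prior count of 0.5 and exact conditional binomial (Clopper-Pearson) 95% intervals, and CPM had exact Poisson ones. Since PCR copies were not collapsed by molecular identifiers, reads are not independent molecules, and intervals and floors cover counting error only. Where a library had 0 reads, the fold was set against 3 counts. Implied length was reads divided by FPKM and by total reads, relative to the median gene when compared on the log2 scale. Python 3.11.15, numpy 2.4.6, scipy 1.17.1, pandas 2.3.3 and matplotlib 3.10.9 were used, and the procedure was tested on simulated data. DESeq2 1.42.0 supplied size factors for an alternative.

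Members, lists and rules were chosen with earlier results of these data known. Genes were named if called, if among the 12 members with the highest mean TPM, if leading a class, if at 30 reads or more against 3 or fewer, or if they were partner genes, taste-type subunits or overlapping genes; all other members named were chosen with their values seen. Coordinates are from RefSeq (GRCm38.p6, the assembly of mm10), which placed 47 of the 47 members. The libraries keep no strand, so overlapping genes cannot be told apart.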

Additional observations from a re-analysis of the deposited data

How the results depend on the processing

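With 1 library per genotype, only counting error could be measured, and biological spread is unknown. No paired analysis was possible because each genotype has 1 library and no replicate number. Rgs14 and Rgs19 were called lower under all 14 alternatives. Rgs1 and Gnai1 were called under 13, all but the minimum of 20 CPM, Rgs16 under 11 and Rgs9 under 10. With deposited TPM or FPKM, where a value of 5 in a library was required, Rgs9 fell under that minimum and was not called; its log2(value + 1) differences of 0.60 and 0.54 are reduced by the added 1. No called member changed direction. Members called higher numbered 5 without a filter on low counts, 0 with the minimum of 20 CPM and 1 at a 4-fold bound, while members called lower stayed between 2 and 4. The median log2 ratio of the measured members was 0.12 with scaling on the tuft markers and 0.10 without a filter, which admits all 47. Members with a mean of 100 CPM, an alternative chosen after seeing the data, had a median of 0.23. In the list of other G protein cycle genes, 2 were lower with scaling on the tuft markers, 4 lower and 1 higher without a filter, 3 lower by the point estimate, 5 lower at a 1.5-fold bound and 0 lower at a 4-fold bound. Over all genes, 595 were higher and 716 lower without a filter, 101 and 106 with the minimum of 20 CPM, 425 and 419 by the point estimate, 598 and 590 at a 1.5-fold bound and 65 and 88 at a 4-fold bound. These rules admit more or fewer genes by construction. With deposited FPKM 165 of 8541 genes were higher, where a value of 5 was required and 1 was added before the log. The main rule admitted 10707 genes. The part of these settings in the lower count was not tested. Scaling on the tuft markers gave 196 higher and 285 lower, against 250 and 233 with TMM.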
